A study of Mus musculus with 6 samples.

Results

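The tumour suppressor p53, its regulators, a set of its transcriptional targets and the inhibitors of cyclin-dependent kinases (CDKs) were compared between smooth muscle cells of mice with a floxed *Pdk4* gene, with and without a Cre recombinase that targets it in smooth muscle. *Pdk4* encodes a kinase that restrains the entry of pyruvate into the tricarboxylic acid cycle. The genes were chosen by name, 35 in all, out of 41721 in the table. A row with the gene's name was found for 34, and the remaining one, *Trp53i11*, was identified through the description of an unnamed row and is given apart. MASMCs, cultured smooth muscle cells taken from mouse abdominal aortas, were sequenced in 6 libraries, 3 from Pdk4fl/fl and 3 from Pdk4SMKO mice. Mice of both genotypes carry loxP sites around exons of *Pdk4* on both alleles, and according to the study's methods both received tamoxifen. Pdk4SMKO mice in addition carry a tamoxifen-inducible Cre recombinase that is driven by the smooth muscle promoter of *Myh11* and lies on the Y chromosome. All cells were treated with angiotensin II (Ang II). The study's methods give 1 μM for 48 h and an age of 10 weeks, and the labels state neither. For experiments in culture the methods also describe passaged cells and serum starvation for 48 h, without naming these libraries. None of the libraries is untreated, so a response to Ang II itself cannot be read from them. The labels do not say whether the cultures came from separate animals, so that the p-values measure the spread between these cultures.

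p53 is a transcription factor that is held at a low level by Mdm2, which marks it for degradation, and by Mdm4, which blocks its activity. DNA damage and other stress free p53 to induce genes that halt the cell cycle, repair DNA or start cell death, and Mdm2 is itself among those targets. The Cip/Kip inhibitors (p21 and p27) and the INK4 inhibitors (p15, p16, p18 and p19) act on CDKs to keep the retinoblastoma protein active, and in vascular smooth muscle they are known as brakes on proliferation and as marks of senescence. Most control of p53 takes place on the protein, and the libraries measure transcripts only.

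Between 16526044 and 22481670 reads were counted on genes in a library. Levels are given as CPM, counts scaled to one library total by edgeR's TMM method, and a count of 3, taken as the limit of detection, corresponded to between 0.132 and 0.227 CPM (counting error only). *Pdk4*, the targeted gene, had 570, 639 and 421 counts in the Pdk4fl/fl libraries and 110, 182 and 141 in the Pdk4SMKO libraries, a log2 fold change of -2.34 (SE 0.22), from reads over the whole gene and not over the loxP-flanked exons alone. The genotypes stood far apart in general. A gene was called when its adjusted p in edgeR's quasi-likelihood test was under 0.05 and it differed at least 2-fold, and of the 14085 genes tested 8346 (59.3%) were called, 3732 (26.5%) lower and 4614 (32.8%) higher in Pdk4SMKO cells. The TMM factors were 0.7836 to 0.8379 in Pdk4fl/fl and 1.212 to 1.255 in Pdk4SMKO libraries. Scaling by library size alone moved the median log2 fold change of all genes by 0.60 and changed the calls to 2388 lower and 6183 higher. *Xist*, the RNA of the inactive X chromosome of female cells, had 3, 4 and 5 counts in the Pdk4fl/fl and 610, 347 and 321 counts in the Pdk4SMKO libraries. The study's methods describe male mice alone, and *Xist*, looked up after its values were seen, goes against this in the 3 Pdk4SMKO libraries. Genotype and whatever underlies the *Xist* counts cannot be told apart in any of the results.

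Markers of other cells moved with genotype too. Of 9 smooth muscle markers 3 were lower and 5 higher, with a summed level of 786 to 811 CPM in Pdk4fl/fl and 726 to 956 CPM in Pdk4SMKO libraries. *Acta2*, *Smtn* and *Tagln* were the most abundant and went in opposite directions. *Acta2* was higher (log2 fold change 1.59), while *Smtn* (-2.28) and *Tagln* (-2.26) were lower. *Myh11* had only 8, 10 and 10 counts in the Pdk4fl/fl and 62, 44 and 46 in the Pdk4SMKO libraries, and *Des* and *Actg2* were near 0 in Pdk4fl/fl cells. All 7 tested of 8 mesothelial markers were higher, with a summed level of 74.2 to 99.99 against 723 to 1325 CPM and *Msln* the most abundant. Fibroblast markers, led by *Col1a1*, summed to 626 to 855 against 5152 to 7054.5 CPM (3 of 6 higher, 1 lower). Macrophage markers summed to 21.6 to 38.0 against 10.2 to 31.8 CPM (5 of 6 tested higher, 1 lower), with *Adgre1*, *C1qa*, *C1qb* and *Tyrobp* at 0 in all Pdk4fl/fl libraries. The lower one was *Cd68*, the most abundant of them in Pdk4fl/fl cells, with a mean of 31.2 against 4.29 CPM (log2 fold change -2.85). Endothelial markers summed to 14.1 to 23.7 against 2.84 to 5.62 CPM (2 of 2 tested lower). The part of these markers in the results on the p53 genes was not tested. In bulk RNA, fewer cells of a type and less RNA per cell cannot be told apart.

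Among the 34 genes, 11 (32.4%) were lower and 14 (41.2%) higher in Pdk4SMKO cells, beside 26.5% and 32.8% of all genes, and 9 were not called. All 34 passed the filter on low counts, and 31 had an adjusted p under 0.05, beside 79% of all genes. Their median log2 fold change was 0.36 against 0.12 over all genes tested. The shares of genes called were thus near those of the whole table, and the counts given below for each role and list stand beside the same 26.5% lower and 32.8% higher. The 3 libraries of one genotype lay entirely below those of the other for 14 genes (38.3% of all genes) and entirely above for 16 (43.5%), together 30 of 34 beside 81.8% of all genes. The genes that were lower included *Trp53* itself, *Cdkn2a* and all 3 Gadd45 genes, and those that were higher included *Mdm4*, *Cdkn1a*, *Cdkn1b*, *Ccng1*, *Btg2*, *Phlda3* and *Trp53inp1*.

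**Figure D1:**
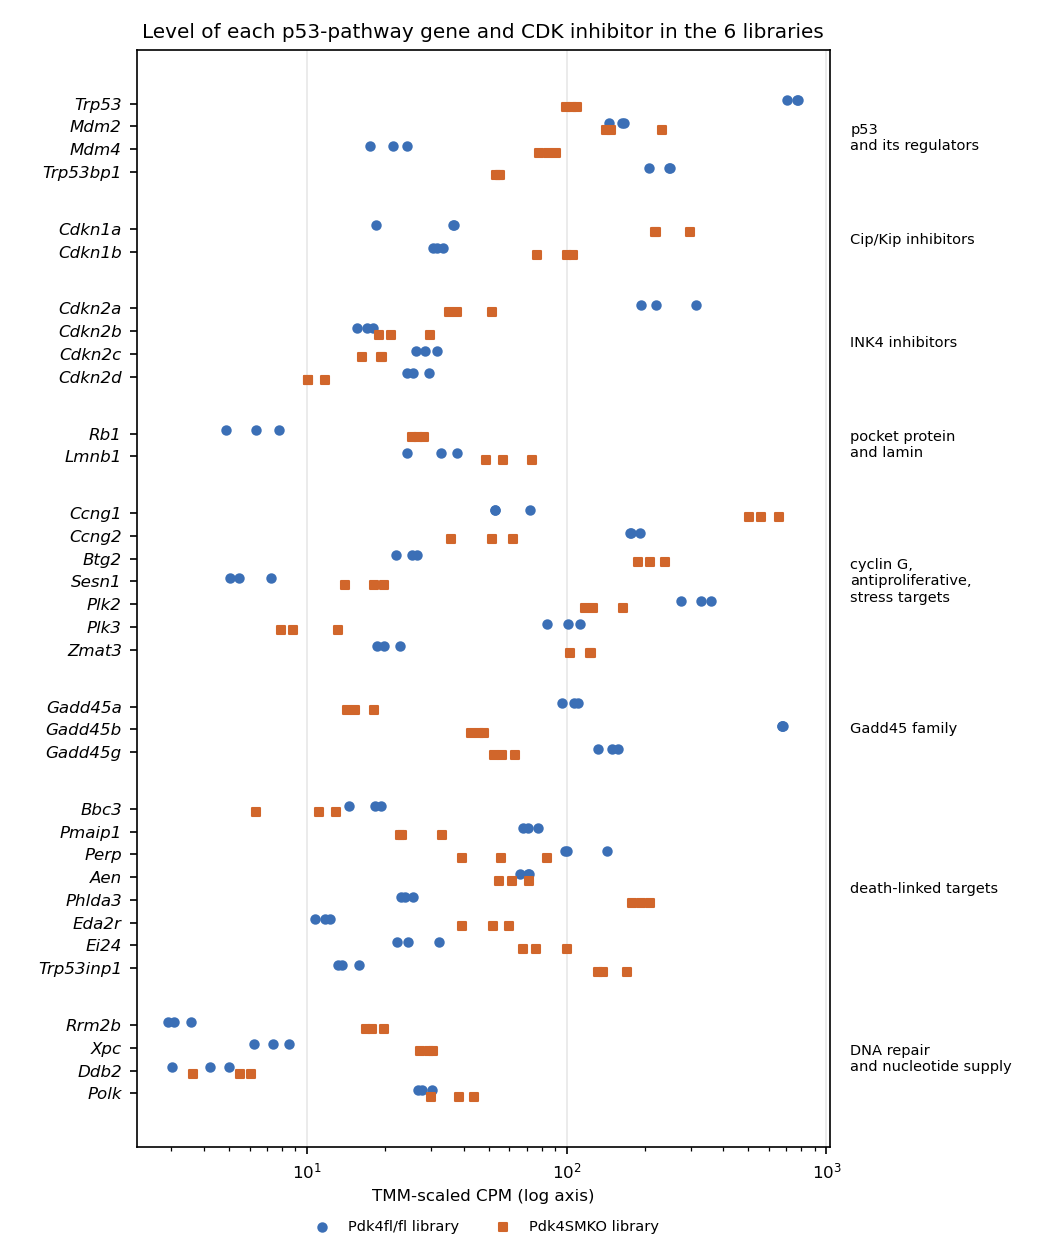
Level of the 34 genes, grouped by role, in each of the 6 libraries, in TMM-scaled CPM on a log axis, with a circle for each Pdk4fl/fl and a square for each Pdk4SMKO library. *Trp53* and *Gadd45b* lie far to the right in Pdk4fl/fl and *Ccng1*, *Cdkn1a*, *Btg2* and *Phlda3* in Pdk4SMKO libraries, while the libraries of *Mdm2*, *Aen*, *Ddb2* and *Polk* overlap.

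**Figure D2:**
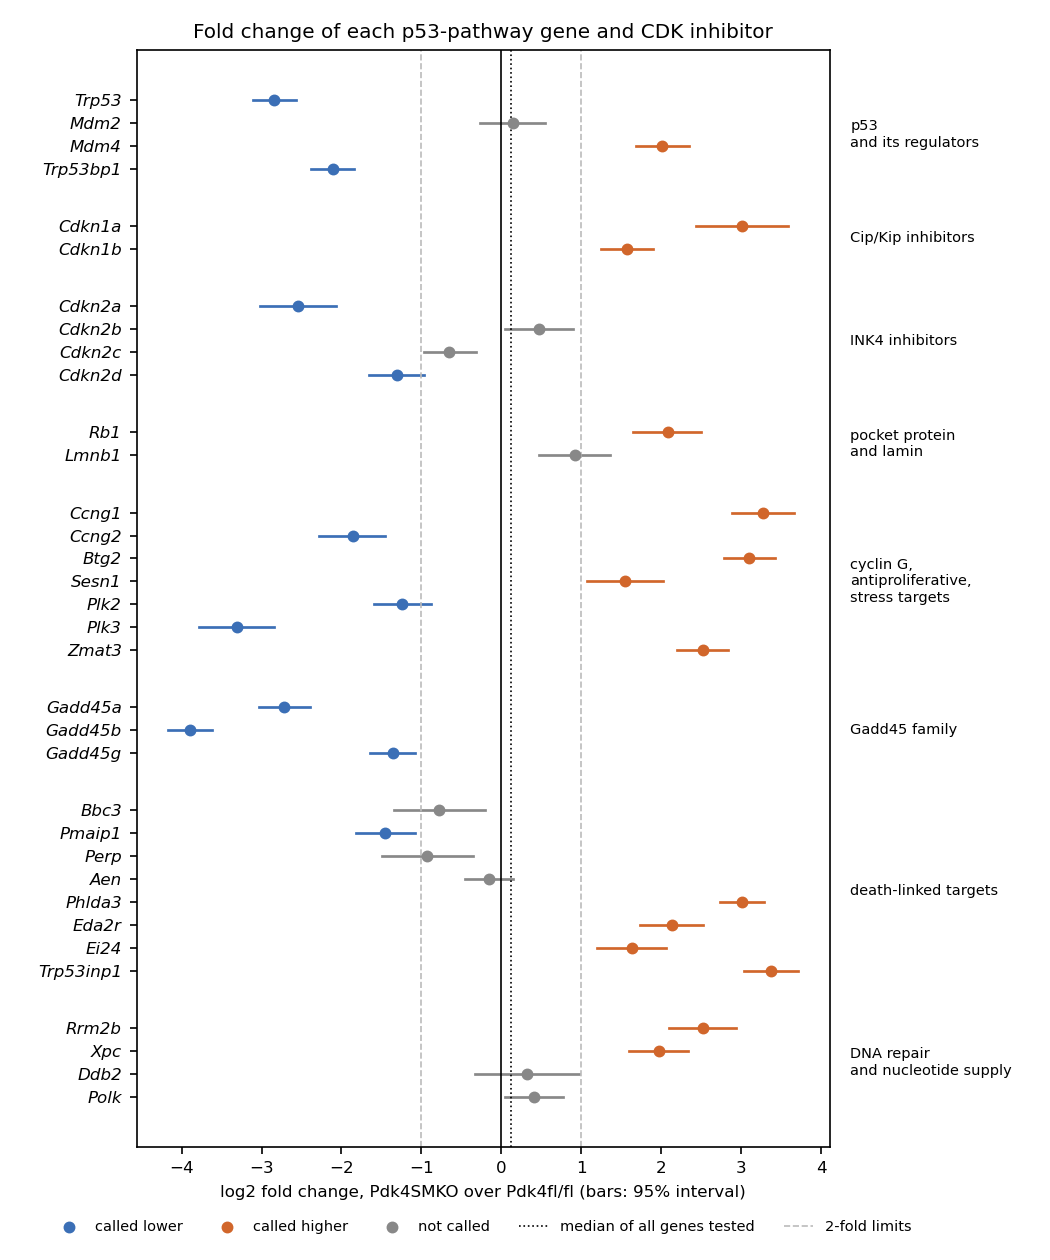
Log2 fold change of each gene, Pdk4SMKO over Pdk4fl/fl, with its 95% interval from edgeR's quasi-likelihood fit. Blue points were called lower (11), orange points higher (14) and grey points not called (9); the dotted line is the median of all genes tested (0.12) and the dashed lines are the 2-fold limits.

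To see which of the genes on both sides carry a short sequence of the kind p53 binds, their promoters were read from RefSeq on GRCm38.p6. The windows ran from 250 bases before to 50 after a transcript start. The counts belong to the annotation of another assembly, that of the C57BL/6NJ strain, so the windows describe the genes and not the counted transcripts. Of the 35 names 26 had a window, and together they had 35 windows. The p53 half-site consensus, a palindrome of 10 bases of which a full p53 site holds a pair, was searched on the strand of the gene, which for a palindrome covers both strands. It was found in 11 of the 35 windows (31.4%) and in 2745 of 32851 windows of all genes (8.36%). Windows can overlap, and those of *Aen* hold the same half-site. Counted by gene, it was found for 10 of 26 (38.5%) beside 2582 of 27025 of all genes (9.55%). By call it was found for 3 of 10 lower genes, 4 of 10 higher genes and 3 of 6 genes that were not called. A full site, 2 half-sites at most 13 bases apart, was found in 1 of the 35 windows, at the upstream start of *Cdkn1a*, and in 24 of 32851 (0.0731%). The stretches around the half-sites are shown for 3 higher genes, 3 lower genes and *Mdm2*, which was not called, with the half-sites in capitals. They lie at chr17:29090876-29090967 (plus strand) for *Cdkn1a*, chr11:40755432-40755501 (minus) for *Ccng1*, chr9:36797335-36797374 (minus) for *Ei24*, chr11:69580254-69580323 (plus) for *Trp53*, chr6:67037408-67037477 (minus) for *Gadd45a*, chr9:21291272-21291341 (minus) for *Cdkn2d* and chr10:117710905-117710974 (minus) for *Mdm2*.
Cdkn1a (higher): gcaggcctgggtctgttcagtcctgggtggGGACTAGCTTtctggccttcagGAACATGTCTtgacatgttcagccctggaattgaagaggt
Ccng1 (higher): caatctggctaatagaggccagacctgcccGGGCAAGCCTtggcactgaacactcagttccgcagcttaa
Ei24 (higher): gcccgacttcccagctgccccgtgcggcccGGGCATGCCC
Trp53 (lower): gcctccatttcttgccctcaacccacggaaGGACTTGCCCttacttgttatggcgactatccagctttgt
Gadd45a (lower): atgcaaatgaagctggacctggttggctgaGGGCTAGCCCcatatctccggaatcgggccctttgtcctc
Cdkn2d (lower): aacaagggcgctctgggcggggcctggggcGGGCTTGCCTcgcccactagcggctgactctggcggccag
Mdm2 (not called): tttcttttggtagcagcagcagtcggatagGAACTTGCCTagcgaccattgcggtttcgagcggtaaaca
The pair in *Cdkn1a* begins 73 and 51 bases before that start, 12 bases apart, and this start lies 2790 bases upstream of the other *Cdkn1a* start, whose window held no half-site. The single half-sites begin 185 bases before the start in *Ccng1*, 10 in *Ei24*, 75 in *Trp53*, 40 in *Gadd45a*, 102 in *Cdkn2d* and 186 in *Mdm2*. Only exact matches to the consensus were counted, and a half-site with a mismatch stays in lower case. In *Cdkn1a* the 10 bases straight after the second half-site differ from the consensus in their first base alone. The exact pair shown is therefore not the only way to pair half-sites in this stretch. The letters describe these windows only, and p53 sites outside them were not searched.

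*Trp53*, which encodes p53 (MGP_C57BL6NJ_G0018929, chr11:72152489-72164199 in the deposited annotation), fell in Pdk4SMKO cells. It stood at 706, 768 and 777 CPM in the Pdk4fl/fl libraries and at 109.7, 105 and 99.5 CPM in the Pdk4SMKO libraries, a log2 fold change of -2.84 (SE 0.12, adjusted p = 2.74e-08 in edgeR's quasi-likelihood test). The lowest Pdk4fl/fl library was far above the highest Pdk4SMKO library. Of the genes that act on p53, 1 was lower, 1 higher and 1 not called.

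*Mdm2*, the ligase that marks p53 for degradation, was not called. It stood at 166, 162 and 145 CPM in Pdk4fl/fl and at 232, 142 and 148 CPM in Pdk4SMKO libraries. The libraries overlapped, and the log2 fold change was 0.14 with a 95% interval from -0.27 to 0.55 (adjusted p = 0.493 in edgeR's quasi-likelihood test). With TMM scaling this interval leaves out a 2-fold difference either way. The value depended on the scaling and was 0.36 with upper-quartile scaling and 0.75 with library size alone, in both cases without a call. Pdk4SMKO replicate 1 was the high library, and without it the log2 fold change was -0.11. *Mdm4*, the relative of Mdm2 that blocks p53 activity, rose from 21.4, 17.5 and 24.1 CPM to 84.8, 78.1 and 91.1 CPM, a log2 fold change of 2.01 (SE 0.15, adjusted p = 9.04e-07). *Trp53bp1*, which encodes an adaptor at DNA breaks that binds p53, fell from 248, 249.5 and 207 CPM to 53.4, 55.1 and 54.8 CPM, a log2 fold change of -2.11 (SE 0.12, adjusted p = 1.51e-07). It is one of the genes the study displayed from these same libraries, so its direction is not independent evidence. Its span overlaps that of *Tubgcp4*, which held 4404 counts over the 6 libraries beside 14444 on *Trp53bp1*, and since the use of strand is not given, reads of the overlap cannot be told apart.

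With *Trp53* lower and *Mdm2* not called, the balance of the 2 transcripts shifted within each library, where no scaling enters. There were 0.235, 0.211 and 0.187 *Mdm2* counts per *Trp53* count in the Pdk4fl/fl libraries and 2.11, 1.35 and 1.49 in the Pdk4SMKO libraries. The genotypes did not overlap, and the exact two-sided permutation test gave p = 0.1, the smallest it allows with 3 libraries against 3. The pairs of genes for these ratios were chosen after the values were seen. *Mdm2* counts per *Mdm4* count went the other way, from 7.74, 9.28 and 6.03 to 2.73, 1.82 and 1.62 (exact permutation p = 0.1).

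**Figure D3:**
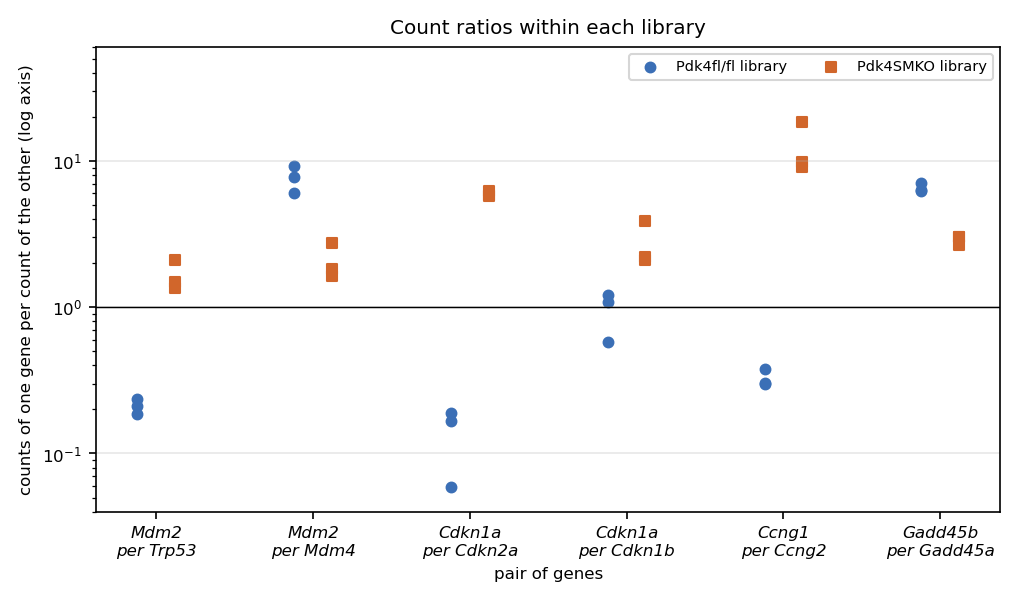
Counts of one gene per count of another within each library, for 6 pairs of genes, on a log axis, with circles for Pdk4fl/fl and squares for Pdk4SMKO libraries. The genotypes do not overlap for any of the 6 pairs, and *Mdm2* per *Trp53*, *Cdkn1a* per *Cdkn2a* and *Ccng1* per *Ccng2* cross from below 1 to above 1.

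Of the Cip/Kip inhibitors, which bind cyclin-CDK complexes, *Cdkn1a* and *Cdkn1b* rose, while *Cdkn1c*, the third gene of the family and not among the 34, was lower and is given with the cyclins. *Cdkn1a*, which encodes p21 and is the classical target of p53 (chr17:29733095-29744217 in the deposited annotation), stood at 36.4, 36.6 and 18.5 CPM in Pdk4fl/fl and at 297, 221 and 219 CPM in Pdk4SMKO libraries. All Pdk4SMKO libraries were high, and among the Pdk4fl/fl libraries replicate 3 was the low one. The log2 fold change was 3.01 (SE 0.25, adjusted p = 2.18e-06 in edgeR's quasi-likelihood test), and it was 2.74 to 3.17 with each library left out in turn. Its spread between Pdk4fl/fl libraries, a coefficient of variation of 34.2%, was the widest of the 34 genes in that genotype. *Cdkn1b*, which encodes p27, rose from 33.4, 30.5 and 31.7 CPM to 76.7, 106 and 100.2 CPM, a log2 fold change of 1.57 (SE 0.15, adjusted p = 4.7e-06).

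Of the INK4 inhibitors, which bind CDK4 and CDK6 directly, 2 of 4 were lower and 2 not called. *Cdkn2a* (chr4:92597506-92621052) stood at 193, 220.0 and 313 CPM in Pdk4fl/fl and at 51.7, 37.8 and 35.2 CPM in Pdk4SMKO libraries. The genotypes did not overlap, and the log2 fold change was -2.54 (SE 0.21, adjusted p = 2.01e-06). This gene makes both p16, an INK4 inhibitor, and p19ARF, which binds Mdm2, and counts per gene cannot tell these transcripts apart. *Cdkn2d* fell from 24.3, 25.6 and 29.4 CPM to 11.7, 10.1 and 10.1 CPM, a log2 fold change of -1.31 (SE 0.15, adjusted p = 2.28e-05), and with scaling by library size alone it was -0.70 and not called. *Cdkn2b* lies beside *Cdkn2a* on the chromosome and was not called, at 16.8 ± 1.20 (SD, n = 3) against 23.2 ± 5.75 CPM (log2 fold change 0.47, 95% interval 0.04 to 0.89, adjusted p = 0.0427). All its Pdk4SMKO libraries lay above all Pdk4fl/fl libraries, by less than the 2-fold limit, and the value became 1.08 and a call with scaling by library size alone. *Cdkn2c* was not called at 28.7 ± 2.72 against 18.3 ± 1.82 CPM (log2 fold change -0.65, 95% interval -0.97 to -0.32).

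Per kilobase of gene length, which allows one gene to be set against another, the inhibitor with the highest level changed with genotype. In Pdk4fl/fl cells *Cdkn2a* led with 207 ± 53.8 CPM per kilobase (SD, n = 3), followed by *Cdkn2d* with 20.8 ± 2.09, *Cdkn1a* with 13.7 ± 4.69, *Cdkn2b* with 12.1 ± 0.860, *Cdkn2c* with 10.7 ± 1.01 and *Cdkn1b* with 7.01 ± 0.323. The libraries of *Cdkn1a*, *Cdkn2b* and *Cdkn2c* overlapped one another, so their order is not fixed. In Pdk4SMKO cells *Cdkn1a* led with 111 ± 20.0 CPM per kilobase, followed by *Cdkn2a* with 35.4 ± 7.57, *Cdkn1b* with 20.8 ± 3.41, *Cdkn2b* with 16.7 ± 4.13, *Cdkn2d* with 8.36 ± 0.747 and *Cdkn2c* with 6.82 ± 0.676. Here only *Cdkn1b* and *Cdkn2b* overlapped as neighbours. Within a library there were 0.188, 0.167 and 0.0589 *Cdkn1a* counts per *Cdkn2a* count in Pdk4fl/fl and 5.75, 5.86 and 6.24 in Pdk4SMKO cells (exact permutation p = 0.1), and 1.09, 1.20 and 0.582 against 3.87, 2.09 and 2.19 *Cdkn1a* counts per *Cdkn1b* count (exact permutation p = 0.1).

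**Figure D4:**
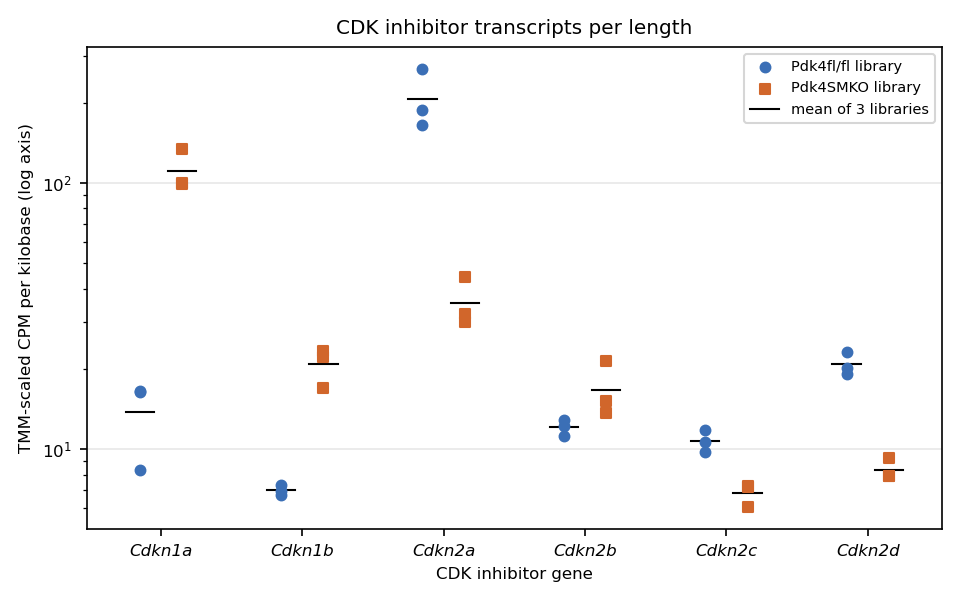
Level of the 6 CDK inhibitor genes in TMM-scaled CPM per kilobase of gene length on a log axis, with circles for Pdk4fl/fl libraries, squares for Pdk4SMKO libraries and a line at the mean of 3. *Cdkn2a* is the highest in Pdk4fl/fl (mean 207) and *Cdkn1a* in Pdk4SMKO cells (mean 111).

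Of the genes downstream of the inhibitors, *Rb1*, the retinoblastoma protein that holds back entry into S phase, was higher. It stood at 4.87, 6.37 and 7.79 CPM in Pdk4fl/fl and at 26.7, 25.3 and 28.2 CPM in Pdk4SMKO libraries (log2 fold change 2.08, SE 0.19, adjusted p = 3.9e-06 in edgeR's quasi-likelihood test). Genes that overlap its span (*Gm17233*, *Lpar6*, *Mir687* and *Rcbtb2*) held 5803 counts beside 1983 on *Rb1*, and the share of reads that belongs to each cannot be told apart. *Lmnb1*, a lamin of the nuclear envelope that is known to be lost from senescent cells, was not called, at 31.5 ± 6.90 (SD, n = 3) against 59.6 ± 12.7 CPM. Its log2 fold change of 0.92 (95% interval 0.47 to 1.36) lay just under the 2-fold limit and passed it without Pdk4fl/fl replicate 1 (1.06) or Pdk4SMKO replicate 3 (1.05), with at least 10 counts required in every library (1.02), and with upper-quartile scaling (1.13) or library size alone (1.52). Proliferation markers stood beside these inhibitors at a summed level of 1653.5 to 1821 CPM in Pdk4fl/fl and 592 to 873 CPM in Pdk4SMKO libraries, with 7 of 14 lower, 2 higher and 5 not called. The sums lean on *Mcm2* and *Pcna*, the most abundant markers in Pdk4fl/fl cells, which were both lower (log2 fold change -2.97 and -2.18). The part of the proliferation markers in the inhibitor levels was not tested.

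Targets linked to arrest and stress split into 4 higher and 3 lower of 7, with a median log2 fold change of 1.54. *Ccng1* and *Ccng2* encode cyclins G1 and G2, atypical cyclins linked to growth arrest, of which the former is a p53 target, and they went in opposite directions. *Ccng1* rose from 53.1, 52.8 and 72.4 CPM to 658, 502 and 559.9 CPM, a log2 fold change of 3.27 (SE 0.17, adjusted p = 9.62e-08 in edgeR's quasi-likelihood test). *Ccng2* fell from 177, 174 and 192 CPM to 35.7, 51.4 and 62.0 CPM, a log2 fold change of -1.86 (SE 0.19, adjusted p = 7.12e-06). The ratio of their counts went from 0.300, 0.303 and 0.378 *Ccng1* counts per *Ccng2* count to 18.5, 9.77 and 9.03 (exact permutation p = 0.1), and Pdk4SMKO replicate 1 was both the highest for *Ccng1* and the lowest for *Ccng2* in its genotype.

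*Btg2*, an antiproliferative gene that acts on mRNA deadenylation, rose from 25.3, 22.1 and 26.6 CPM to 188, 238 and 209 CPM, a log2 fold change of 3.10 (SE 0.14, adjusted p = 4.4e-08). *Zmat3*, an RNA-binding protein induced by p53, rose from 22.8, 18.6 and 19.7 CPM to 124, 103 and 122 CPM (log2 fold change 2.52, SE 0.14, adjusted p = 1.41e-07). *Sesn1*, a stress-responsive inhibitor of the growth kinase mTORC1, rose at a lower level, from 5.92 ± 1.18 (SD, n = 3) to 17.2 ± 2.96 CPM (log2 fold change 1.54, SE 0.21, adjusted p = 7.46e-05). The polo-like kinases of the stress response fell. *Plk3* stood at 101, 112 and 84.1 CPM against 13.1, 8.81 and 7.90 CPM, a log2 fold change of -3.31 (SE 0.21, adjusted p = 2.99e-07). *Plk2* stood at 359.9, 328 and 274 CPM against 165, 117 and 127 CPM (log2 fold change -1.24, SE 0.16, adjusted p = 4.69e-05), and was not called with scaling by library size alone (-0.63) or when tested against the 2-fold limit itself. For both kinases Pdk4SMKO replicate 1 was the highest library of its genotype and still lay below every Pdk4fl/fl library.

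All 3 Gadd45 genes, small proteins that couple stress to arrest, repair and p38 and JNK signaling, were lower, with a median log2 fold change of -2.72. *Gadd45b* (chr10:84402532-84404645) stood at 683, 674 and 675 CPM in Pdk4fl/fl and at 42.6, 47.9 and 45.8 CPM in Pdk4SMKO libraries. Its log2 fold change of -3.90 (SE 0.12, adjusted p = 9.42e-09 in edgeR's quasi-likelihood test) was the most negative of the 34 genes, and its Pdk4fl/fl libraries differed by a coefficient of variation of only 0.679%, the narrowest of the 34 in that genotype. *Gadd45a*, the member known as a direct p53 target, fell from 110.0, 95.8 and 106 CPM to 14.2, 18.0 and 15.3 CPM (log2 fold change -2.72, SE 0.14, adjusted p = 8.37e-08). Its span overlaps a non-coding gene, *E230016M11Rik*, with 134 counts over the 6 libraries. *Gadd45g* fell from 149.7, 158 and 132 CPM to 62.9, 56.1 and 52.3 CPM (log2 fold change -1.36, SE 0.13, adjusted p = 4.35e-06), which was -0.76 and not called with scaling by library size alone. The 3 did not fall alike, since within a library there were 6.21, 7.04 and 6.35 *Gadd45b* counts per *Gadd45a* count in Pdk4fl/fl and 3.01, 2.66 and 2.99 in Pdk4SMKO cells (exact permutation p = 0.1).

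Of 8 targets linked to cell death, 4 were higher, 1 lower and 3 not called. *Trp53inp1*, a stress-induced protein that assists p53, rose from 15.8, 13.6 and 13.2 CPM to 132, 138 and 169.8 CPM. Its log2 fold change of 3.37 (SE 0.15, adjusted p = 4.3e-08 in edgeR's quasi-likelihood test) was the most positive of the 34 genes. *Phlda3*, an inhibitor of the survival kinase Akt, rose from 25.5, 23.8 and 23.0 CPM to 193, 209 and 178 CPM (log2 fold change 3.01, SE 0.13, adjusted p = 2.63e-08). *Eda2r*, a receptor of the TNF receptor family that is encoded on the X chromosome, rose from 11.7, 10.7 and 12.3 CPM to 59.9, 39.6 and 52.0 CPM (log2 fold change 2.13, SE 0.18, adjusted p = 1.9e-06), and the *Xist* counts given above differ in the same libraries. *Ei24*, a membrane protein of the endoplasmic reticulum, rose from 26.3 ± 5.30 (SD, n = 3) to 81.2 ± 17.0 CPM (log2 fold change 1.63, SE 0.19, adjusted p = 2.34e-05).

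*Pmaip1*, which encodes Noxa, and *Bbc3*, which encodes Puma, are BH3-only genes that act on mitochondria to start apoptosis. *Pmaip1* fell from 71.1, 67.6 and 77.5 CPM to 33.1, 23.1 and 22.8 CPM (log2 fold change -1.45, SE 0.17, adjusted p = 1.96e-05), or -0.84 without a call when libraries were scaled by size alone. *Bbc3* was not called at 17.3 ± 2.55 (SD, n = 3) against 10.1 ± 3.40 CPM (log2 fold change -0.78, 95% interval -1.34 to -0.21), although its libraries did not overlap. *Perp*, a membrane protein of desmosomes, was not called at 100.2, 98.1 and 143 against 83.6, 39.6 and 55.9 CPM (log2 fold change -0.93, 95% interval -1.49 to -0.36). It had the widest spread between Pdk4SMKO libraries, a coefficient of variation of 37.3%, and it was called lower without Pdk4SMKO replicate 1 (-1.24) and, just past the limit, without Pdk4fl/fl replicate 2 (-1.01) or replicate 1. *Aen*, a nuclease induced by p53, overlapped between genotypes at 69.6 ± 2.93 against 62.5 ± 8.35 CPM, with an interval from -0.45 to 0.14 around its log2 fold change of -0.15, and its sign depended on the scaling (0.06 with upper-quartile scaling and 0.45 with library size alone).

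*Trp53i11*, a gene named for its induction by p53 and known here only from a row's description (MGP_C57BL6NJ_G0026594, chr2:97900961-97916703), had 4, 0 and 2 counts in the Pdk4fl/fl libraries and 362, 488 and 407 in the Pdk4SMKO libraries. The genotypes did not overlap. The log2 fold change of 7.19 (SE 0.46) rests on 6 counts in all in Pdk4fl/fl cells, and it was 8.14 without Pdk4fl/fl replicate 1 and 6.52 without Pdk4fl/fl replicate 2.

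Of the genes of DNA repair and nucleotide supply 2 of 4 were higher and 2 not called. *Rrm2b*, the p53-induced subunit of ribonucleotide reductase, rose from 3.07, 2.91 and 3.56 CPM to 17.8, 16.9 and 19.8 CPM (log2 fold change 2.52, SE 0.19, adjusted p = 8.06e-07 in edgeR's quasi-likelihood test). *Xpc*, which recognizes damage in nucleotide excision repair, rose from 6.27, 8.51 and 7.42 CPM to 27.1, 29.5 and 30.5 CPM (log2 fold change 1.97, SE 0.17, adjusted p = 2.05e-06). For both genes every Pdk4SMKO library lay above every Pdk4fl/fl library. *Ddb2*, its partner for ultraviolet damage, overlapped between genotypes at 4.09 ± 0.998 (SD, n = 3) against 5.08 ± 1.28 CPM, with a log2 fold change of 0.32 (95% interval -0.33 to 0.97), and 4514 counts lay on *Acp2*, whose span overlaps its own, beside 504 on *Ddb2*. *Polk*, a polymerase that copies across damaged bases, also overlapped at 28.2 ± 1.86 against 37.5 ± 7.01 CPM (log2 fold change 0.41, 95% interval 0.05 to 0.77), and passed the 2-fold limit with scaling by library size alone (1.02).

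Set against each other per kilobase, the gene with the highest level was a different one in the 2 genotypes. In Pdk4fl/fl cells *Gadd45b* led the 34 with 535 ± 3.63 CPM per kilobase (SD, n = 3), followed by *Cdkn2a* with 207 ± 53.8, *Trp53* with 185 ± 9.59, *Gadd45g* with 125 ± 11.3 and *Plk2* with 114 ± 15.5. All 5 were called lower. In Pdk4SMKO cells *Ccng1* led with 163 ± 22.5 CPM per kilobase, followed by *Phlda3* with 124 ± 9.81, *Cdkn1a* with 111 ± 20.0 and *Btg2* with 77.2 ± 9.19, and all 4 were called higher. Next came *Gadd45g* with 48.7 ± 4.55 and *Plk2* with 48.6 ± 9.08. Both were called lower and were also among the 5 listed for Pdk4fl/fl cells. Genes picked for a high level in 1 genotype tend to be called toward it, so these calls are no separate evidence. The libraries of *Cdkn2a* and *Trp53*, of *Gadd45g* and *Plk2*, and of *Phlda3* and *Cdkn1a* overlapped, so that the order within these pairs is not fixed.

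The libraries of one genotype did not stand equally for these genes. Pdk4SMKO replicate 1 was the highest library of its genotype for 20 of the 34 genes, and replicates 2 and 3 for 7 each. In Pdk4fl/fl cells the highest library was replicate 1 for 12, replicate 2 for 7 and replicate 3 for 15 genes. The highest library was not counted over all genes tested, so these numbers cannot be read as particular to the 34 genes. The median coefficient of variation of the genes was 10.1% in Pdk4fl/fl and 15.2% in Pdk4SMKO libraries, against 16.3% and 12.5% over all genes tested. With any single library left out, 11 or 12 genes were called lower and 14 or 15 higher, and the additional genes were *Perp* and *Lmnb1*.

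**Figure D5:**
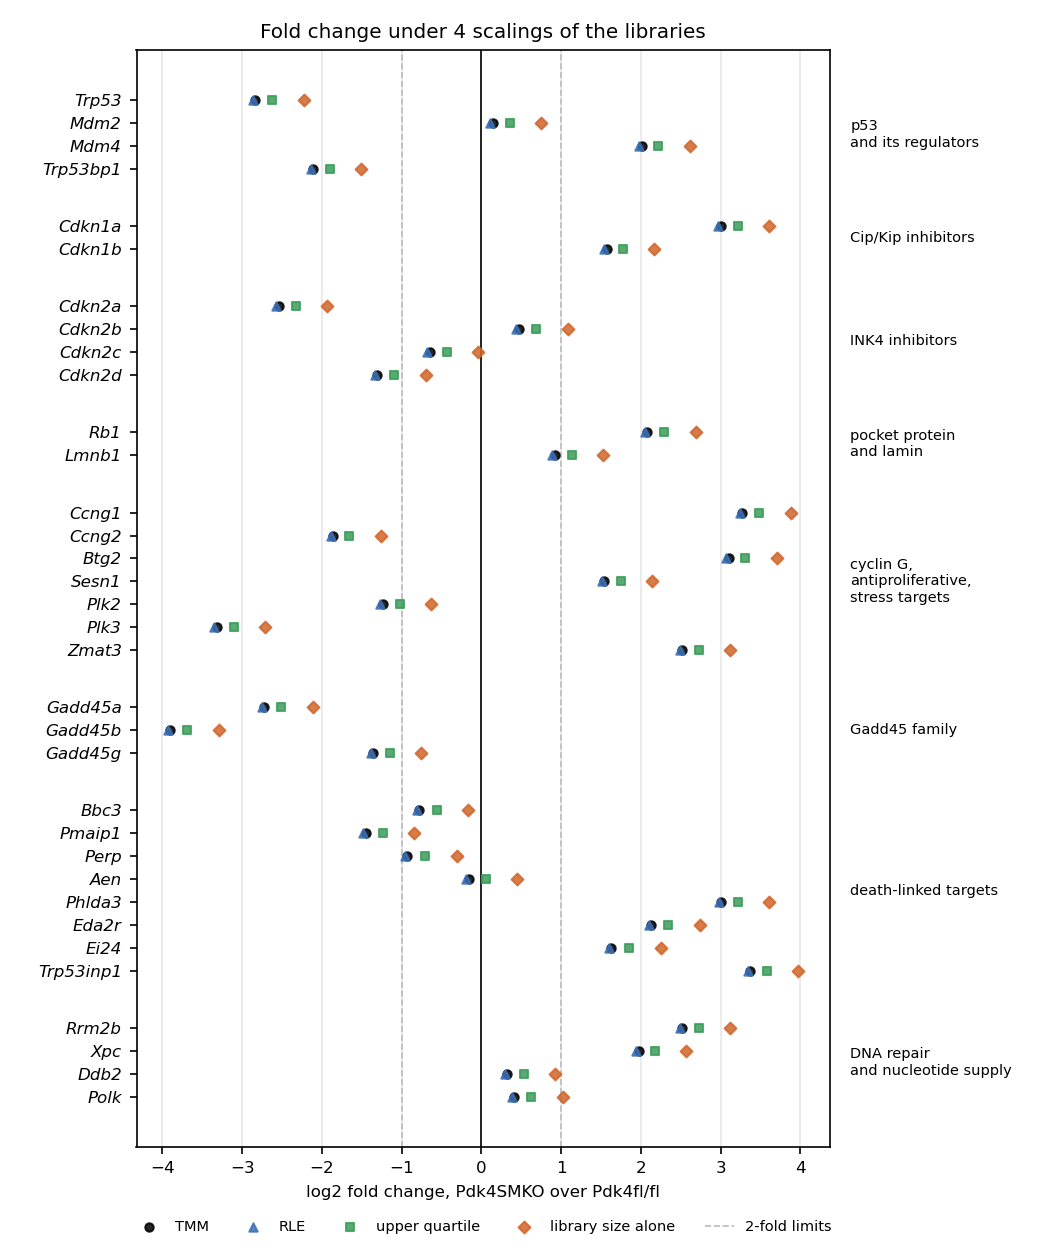
Log2 fold change of each gene under 4 scalings of the libraries (TMM, RLE, upper quartile and library size alone), with dashed lines at the 2-fold limits. Library size alone shifts every gene to the right by about the 0.60 by which it shifts the median of all genes, and *Cdkn2d*, *Plk2*, *Gadd45g* and *Pmaip1* then fall inside the limits.

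Other genes of the pathway were taken from 4 lists. Of 27 further p53 targets tested, 13 were higher and 5 lower, beside 32.8% and 26.5% of all genes, with a median log2 fold change of 0.76 beside 0.12 over all genes. *Mgmt*, which removes alkyl groups from guanine, had 0 counts in every Pdk4fl/fl library and 361, 314 and 297 in the Pdk4SMKO libraries, at least 77.8-fold higher against a floor of 3 counts per library. *Tigar*, a regulator of glycolysis, rose to 27.1 ± 2.20 (SD, n = 3) from 0.855 ± 0.532 CPM (log2 fold change 4.99, SE 0.31, or 5.62 without Pdk4fl/fl replicate 1). *Bax*, the effector of mitochondrial apoptosis, went the other way, from 278 ± 46.0 to 69.8 ± 2.72 CPM (log2 fold change -1.99, SE 0.14), as did *Ccnk*, a cyclin of transcription (-3.32, SE 0.12).

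Of 15 partners and modifiers of p53 tested, 6 were lower and 3 higher, with a median log2 fold change of -0.56. *Rpl11*, a ribosomal protein that can bind Mdm2, fell from 1444 ± 459.7 (SD, n = 3) to 212 ± 29.4 CPM (log2 fold change -2.77, SE 0.22), and *Kat5*, an acetyltransferase of p53, from 143 ± 6.63 to 23.0 ± 1.46 CPM (-2.64, SE 0.12), with 2178 counts on overlapping genes beside 8139 on *Kat5*. *Ppp1r13b*, an apoptosis-stimulating partner of p53, rose from 3.87 ± 1.44 to 13.1 ± 2.16 CPM (1.75, SE 0.27). *Trp63*, the p53 relative of epithelia, had 2, 2 and 0 counts in Pdk4fl/fl and 19, 79 and 34 in Pdk4SMKO libraries, at least 10.9-fold higher against the same floor. With scaling by library size alone, 3 of the 15 were lower.

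Of 16 kinases and adaptors of damage sensing, 3 were lower and 3 higher, with a median log2 fold change of 0.36. *Rad9a*, of the checkpoint clamp, had a log2 fold change of -5.19 (SE 0.15), and *Nbn*, of the complex that binds broken ends, one of -2.51 (SE 0.13). *Atr*, the kinase of stalled replication, had one of 1.98 (SE 0.22) and *Rad17*, of the clamp loader, one of 1.18 (SE 0.14). Genes whose spans overlap held 33182 counts beside 26029 on *Rad9a* and 2991 beside 1963 on *Rad17*, and reads of the overlap cannot be told apart. Upper-quartile scaling gave 5 higher genes of the 16 and library size alone 8.

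Of 23 cyclins, CDKs, E2F factors and pocket proteins, 4 were lower and 9 higher, and the median log2 fold change was 0.02. The D cyclins, which bind the CDKs that INK4 proteins inhibit, included the genes of the list with the most positive values: *Ccnd1* rose from 36.6 ± 5.46 (SD, n = 3) to 502 ± 148 CPM (log2 fold change 3.78, SE 0.22) and *Ccnd3* to 94.6 ± 11.1 CPM (2.86, SE 0.14). Overlapping genes held 3454 counts beside 6601 on *Ccnd3* and 1090 beside 33900 on *Ccnd1*. *Ccnb1*, the cyclin of mitosis, fell from 70.3 ± 4.02 to 19.3 ± 6.79 CPM (-1.87, SE 0.22). *Cdkn1c*, the Cip/Kip inhibitor p57, went against the direction of *Cdkn1a* and *Cdkn1b*, with 43, 49 and 44 counts in Pdk4fl/fl and 3, 9 and 0 in Pdk4SMKO libraries (-3.91, SE 0.66). The value rests on these few counts and was -5.28 without Pdk4SMKO replicate 2 and -3.34 without replicate 3 of that genotype.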

How the data were processed

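RNA from 6 cultures, 3 per genotype, was sequenced. The values the authors deposited are raw read counts for each gene, not normalized. Aligner, counting program and use of strand are not given in the sources used here. The submitters' processing notes name GRCm39, while the identifiers and coordinates are those of Ensembl's C57BL/6NJ annotation. The study's methods and the labels name different library kits. Genes outside that annotation, which carry no name (625), held 1.15% of counts and were kept in the library totals.

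The test was edgeR's (version 4.0.16, R 4.3.3; TMM scaling, filterByExpr, robust quasi-likelihood fit on genotype alone, Benjamini-Hochberg adjustment over 14085 genes). SEs were taken from the log2 fold change and its F statistic. The study's own tool, DESeq2 (1.42.0), with RLE, upper-quartile and library-size scaling, other filters, a replicate block, a test against the 2-fold limit, other thresholds and leaving out each library, were the alternatives. The fits were tested on simulated counts with 200 changed genes. These are far fewer than were called in the data, so the simulation does not bear on the choice of scaling. Single ratios were compared by an exact permutation test. No batch is given in the labels or the table. CPM per kilobase used the gene length of the table.

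Named were all 35 genes, *Pdk4* and, from each of the 4 pathway lists, the called genes with the 2 lowest and the 2 highest log2 fold changes, with markers named only at or near 0 or as the most abundant. The genes and lists were chosen with earlier results of these data known. *Xist* and the ratios were added after values were seen. One listed partner, *Trp53rk*, was not found by name. Protein sequences were not used here. Rows of the table that may hold copies of 1 gene are not reported here.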

Additional observations from a re-analysis of the deposited data

How the results depend on the processing

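With 3 cultures per genotype and no batch labels, the data limit each difference to the spread between cultures, and the scaling matters most, since the TMM factors differ between genotypes. RLE scaling, DESeq2, no low-count filter and the replicate block changed no call of a named gene. The test against the 2-fold limit left 10 of the 34 genes lower, without *Plk2*, and 14 higher. Scaling by library size alone gave 7 of the 34 genes lower, 3 p53 partners lower, 8 damage-sensing genes higher, 3 proliferation markers lower, 1 endothelial marker lower and 0 fibroblast markers lower. Upper-quartile scaling gave 5 damage-sensing genes higher, 1 endothelial marker lower and 0 fibroblast markers lower. These scalings add 0.60 and 0.21 to the median log2 fold change of all genes. *Aen* reversed to 0.06 with upper-quartile scaling and to 0.45 with library size alone, and *Mdm2* ranged from -0.11 to 0.28 with each library left out, the reversal coming without Pdk4SMKO replicate 1, the cause of which was not tested. With the replicate number as a block, 11 of the 34 genes were lower and 14 higher, as without it, and 3703 and 4574 of all genes. Same-numbered cultures correlated at 0.04, 0.06 and 0.176 in their deviations from the group means, and not every culture correlated best with its own number. With 3 cultures per genotype this check cannot decide whether the numbers pair the cultures.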
